A study of Mus musculus with 23 samples.

Results

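Ion channels of microglia, the macrophages of the brain tissue, are described here through 10 genes chosen by name. Kcnk13 encodes THIK-1, and the others are Kcnk6, Kcna3, Kcnj2, Kcnn4, Hvcn1, Trpv2, Trpm2, Clic1 and Lrrc8a. They are 10 of the 53090 genes in the deposited tables, and all 10 were among the 18720 genes with enough counts to test. The study sequenced poly(A) RNA of microglia from female C57BL/6 mice in 23 libraries and set young against old animals, with and without renewal of the microglia. The groups were young (labelled Y, 7 libraries), young repopulated (Y-re, 3), old (O, 5) and old repopulated (O-re, 8). Microglia were depleted with PLX5622, an inhibitor of the CSF1 receptor on which microglia depend, given in AIN-76A chow at 1200 ppm, and control animals ate the same chow without it. The sources used here do not give the animals' ages or how long treatment and recovery lasted. The protocols describe a magnetic CD11b isolation with culture and, for the RNA, microglia sorted by flow cytometry. They do not say that each library came from a separate animal, so the p-values below measure the spread between these libraries.

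Potassium channels hold the microglial membrane negative, which keeps the driving force for calcium entry and shapes how the cells survey tissue and release cytokines. THIK-1 is a two-pore-domain potassium channel that carries the tonic conductance of surveilling microglia and acts downstream of the purinergic receptor P2Y12. Voltage-gated, inwardly rectifying and calcium-activated potassium channels add to it in activated cells, a proton channel offsets the charge and acid made by NADPH oxidase, TRP channels admit cations, and volume-regulated anion channels release chloride and small solutes.

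Kcnn4, the calcium-activated potassium channel KCa3.1, was the member with the largest differences. It was 5.91-fold higher in old against young libraries, 6.09-fold in young repopulated against young and 11.2-fold in old repopulated against young. The second of these calls was lost in many fits without 1 library and the first in 1. Within the libraries numbered 1 to 11 in their titles, neither the first nor the third passed. There 0.00533% and 0.0107% of all genes passed. What part other cells in the libraries had in these differences was not tested. Lrrc8a, the subunit that every volume-regulated anion channel needs, fell 1.53-fold in old repopulated against young, where 15.2% of all genes were called. This did not pass within the libraries numbered 1 to 11, where 0.0107% of all genes did. Its count is uncertain because the predicted gene Gm28035 covers 66.2% of its exon bases, though the sum of both genes fell as well. Kcnk13 passed the test in none of the 6 comparisons by edgeR's quasi-likelihood test, and its group medians ran from 54.8 to 65.3 counts per 1000000 (CPM).

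Total expected counts per library ran from 43.66 to 58.19 M (M, 1000000). Microglia markers were high in every group: the summed level of 10 markers had a median of 30300 CPM in young, 24890 in young repopulated, 20040 in old and 15930 in old repopulated libraries, and none of them was at 0. Markers of other myeloid cells moved with the groups. The sum of 8 monocyte markers was 18.6 to 248 CPM in young, 81.1 to 295 in young repopulated, 132 to 2334 in old and 98.5 to 3027 in old repopulated libraries. The sum of 7 border macrophage markers was 58.2 to 223, 295 to 411, 182 to 878 and 70.3 to 1235 CPM in the same order. Fewer cells of a type and less RNA per cell cannot be told apart in bulk libraries. The titles number the libraries, and both runs of numbers differ in makeup: 1 to 11 holds 3 young, 2 old and 5 old repopulated libraries, and 12 to 24 holds all 3 young repopulated ones with 4 young, 3 old and 3 old repopulated. The labels do not say what the numbers mark, so values within a run are given beside each member whose call against young or old libraries differed there from that over all libraries. Within 1 to 11, 0.00533% of all genes were called in old against young and 0.0107% in old repopulated against young. Within 12 to 24 these shares were 15.7% and 41.1%, with 12.7% in old repopulated against old and 9.3% in young repopulated against young. The old repopulated libraries had microglia marker sums of 9814 to 14530 CPM in 12 to 24 and 15170 to 30010 in 1 to 11. The old ones had 10370 to 23770 CPM in 12 to 24, and 26580 and 20040 in 1 to 11. For old repopulated libraries, run and marker level thus cannot be told apart for any member, and neither was tested as a cause. Young replicate 3 stood apart from the rest on the second principal component (11.3% of the variance), and without it the calls of Kcnn4 and Lrrc8a given below held.

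The promoters of the 3 genes on which the results turn, Kcnn4, Lrrc8a and Kcnk13, are shown as the 250 bases before the transcript start in RefSeq (GRCm38.p6, plus strand, 5′ to 3′). They lie at chr7:24370013-24370262, chr2:30237519-30237768 and chr12:99964249-99964498. Capitals mark matches to 4 motifs searched on both strands: the core of the PU.1 site (GAGGAA), the E-box (CACGTG), the GC box (GGGCGG) and the AP-1 site (TGANTCA).
Kcnn4: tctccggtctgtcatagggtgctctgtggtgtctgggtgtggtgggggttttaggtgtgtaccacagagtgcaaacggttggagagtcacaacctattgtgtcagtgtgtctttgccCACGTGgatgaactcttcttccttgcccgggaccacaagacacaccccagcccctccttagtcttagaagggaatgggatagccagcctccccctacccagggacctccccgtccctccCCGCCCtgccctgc
Lrrc8a: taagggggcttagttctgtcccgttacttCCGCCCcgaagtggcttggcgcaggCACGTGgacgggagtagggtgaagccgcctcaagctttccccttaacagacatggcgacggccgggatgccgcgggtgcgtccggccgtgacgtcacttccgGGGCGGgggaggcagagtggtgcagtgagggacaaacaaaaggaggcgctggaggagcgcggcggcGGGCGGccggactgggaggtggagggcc
Kcnk13: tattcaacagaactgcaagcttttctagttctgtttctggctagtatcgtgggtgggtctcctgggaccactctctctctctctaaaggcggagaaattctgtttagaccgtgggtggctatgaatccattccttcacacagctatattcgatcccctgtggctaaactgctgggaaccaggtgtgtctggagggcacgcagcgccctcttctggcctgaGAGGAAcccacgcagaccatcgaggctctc

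In Kcnn4 the capitals are an E-box 133 bases and a GC box 14 bases before the start. Lrrc8a has an E-box 196 bases and GC boxes 221, 94 and 28 bases before the start, and Kcnk13 has a PU.1 core 30 bases before it. The promoter table held 8 of the 10 members. An E-box was found in 3 of the 8 (Kcnj2, Kcnn4 and Lrrc8a) and in 6.02% of all 32851 promoters of the same length. A PU.1 core was found in 5 of the 8 and in 23.3% of all promoters, a GC box in 6 of the 8 and in 32.7%, and an AP-1 site in 1 (Clic1) and in 6.75%. The 8 members had 10 promoters, and a member counted if any of its own matched, whereas the shares over all are per promoter. The members with a GC box had 56.8% to 74.4% G and C bases, against a median of 52.4% over all promoters. A match is a run of letters in this window and not a measured binding site.

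Levels between genes were compared per length, as the deposited TPM (transcripts per 1000000). In every group Clic1 was highest, followed by Hvcn1, Kcnk6, Trpm2, Trpv2 and Kcnk13, so 6 of the 10 genes held the same place in all 4 groups. Kcnk13 had median TPM of 36.1 in young, 31.2 in young repopulated, 32.1 in old and 32.8 in old repopulated libraries, against 374, 330, 379 and 375 for Clic1. Kcnn4 was the lowest of the 10 in young libraries, with a median TPM of 3.10, and stood 7th in young repopulated (23.3), 8th in old (18.1) and 7th in old repopulated libraries (30.0). Of the 9 pairs of neighbours in the order, 5 had ranges that did not overlap in young and 6 in young repopulated libraries, but only 2 in old and 2 in old repopulated libraries. Clic1 above Hvcn1 and Trpv2 above Kcnk13 were separate in all 4 groups. In the young libraries the neighbours Kcnj2, Lrrc8a, Kcna3 and Kcnn4 overlapped, as did Trpm2 and Trpv2.

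**Figure D1:**
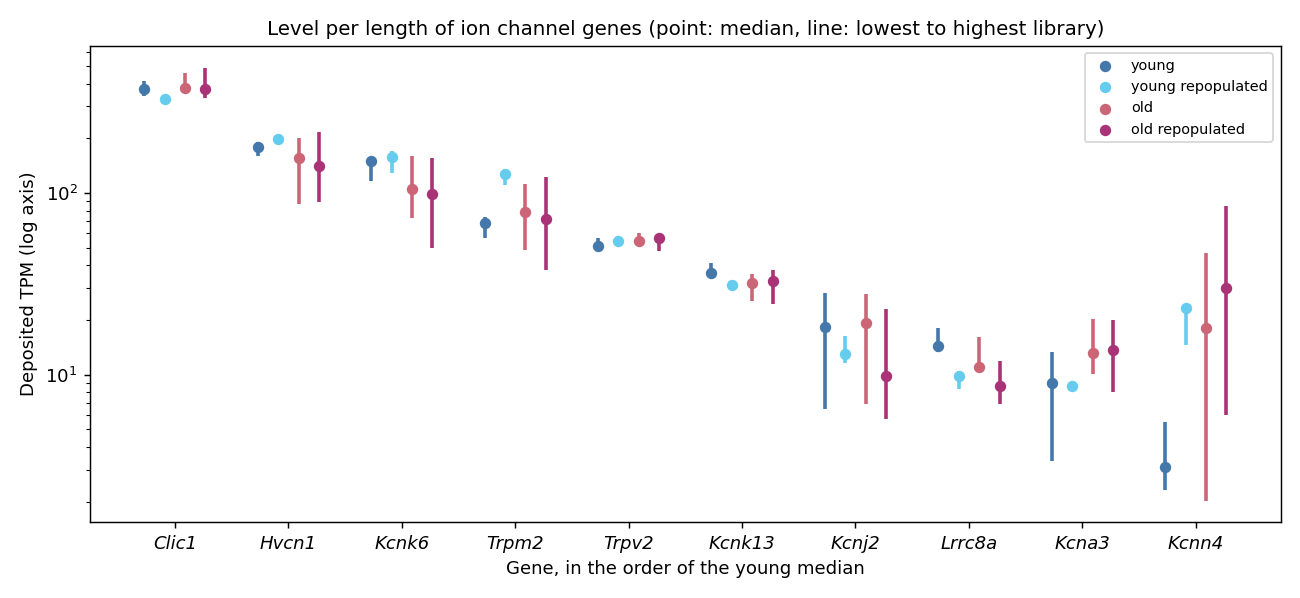
Deposited TPM (log axis) of the 10 ion channel genes in the order of the young median; points are medians and lines run from the lowest to the highest library of each group. Kcnn4 moves from the lowest place in young libraries (median 3.10) to medians of 23.3, 18.1 and 30.0 in the other groups, while Clic1 stays highest.

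Both two-pore-domain potassium channels were compared in CPM, scaled for library composition. Kcnk13 (ENSMUSG00000045404.16, chr12:99964499-100062682, plus strand, GRCm38) had 60.2, 65.3 and 71.7 CPM as the lowest, median and highest young library. The young repopulated libraries had 58.4, 58.2 and 56.99 CPM, the old ones 57.1, 52.4, 64.0, 54.8 and 45.0, and the old repopulated ones 46.0, 62.6 and 73.3 as lowest, median and highest. All 3 young repopulated libraries lay just below all 7 young ones, while 1 old library and several old repopulated ones lay inside the young range. The log2 fold changes of Kcnk13 were -0.27 ± 0.11 (SE) in old against young (edgeR, adjusted p = 0.215), 0.14 ± 0.10 in old repopulated against old (0.722), -0.18 ± 0.13 in young repopulated against young (0.543) and -0.12 ± 0.09 in old repopulated against young (0.407). The old against young difference passed under limma voom with sample quality weights only (-0.34, adjusted p = 0.0145). Kcnk6 encodes TWIK-2, a potassium channel of macrophages that takes part in inflammasome activation after ATP. It had 298 to 362 CPM in young (median 356), 324, 392 and 418 in young repopulated, 371, 249, 175, 281 and 227 in old, and 129 to 375 in old repopulated libraries (median 252). The old and old repopulated groups thus reached from just above the young range to well below it. Its log2 fold change in old repopulated against young was -0.49 ± 0.19 (edgeR, adjusted p = 0.0802). The difference was larger in library numbers 12 to 24 (-1.22, adjusted p = 0.000256) than in 1 to 11 (-0.13, adjusted p = 0.835). The old repopulated libraries of 12 to 24 also had the lowest microglia marker sums of their group, so run and marker level cannot be told apart. In 12 to 24 the old repopulated libraries had 129 to 187 CPM of Kcnk6, the old ones 175 to 281 and the young ones 316 to 362, and there old against young (-0.60, edgeR, adjusted p = 0.0332) and old repopulated against old (-0.62, 0.0438) passed as well.

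Of the other potassium channels, Kcnn4 (ENSMUSG00000054342.8, chr7:24370263-24386690, plus strand) was low in young libraries, at 2.46 to 5.66 CPM with a median of 3.57. The young repopulated libraries had 29.0, 25.3 and 16.7 CPM, the old ones 2.67, 18.7, 53.8, 12.1 and 27.6, and the old repopulated ones 7.13 to 94.2 with a median of 35.9. All 3 young repopulated, 4 of 5 old and all 8 old repopulated libraries were above the highest young one, and old replicate 1 lay at the low end of the young range. The log2 fold changes were 2.56 ± 0.58 (SE) in old against young (edgeR, adjusted p = 0.0179), 2.61 ± 0.64 in young repopulated against young (0.0413) and 3.49 ± 0.57 in old repopulated against young (0.000678). Old repopulated against old gave 0.93 ± 0.57 (0.639) and old repopulated against young repopulated 0.88 ± 0.69 (0.595). The effect of repopulation was 1.68 smaller in old than in young animals on the log2 scale (interaction -1.68 ± 0.85, adjusted p = 0.615), which did not pass.

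The old against young call for Kcnn4 was lost without old replicate 3 (1.97, adjusted p = 0.128), the old library with the most Kcnn4. The young repopulated against young call was lost in 11 of the 23 fits that left out 1 library, namely without any of young replicates 1, 2, 4, 5, 6 and 7, young repopulated replicates 1, 2 and 3, or old replicates 2 and 5, with log2 fold changes of 2.43 to 2.81 over all 23 fits and adjusted p up to 0.182. With the run of library numbers as a term it was 2.03 (adjusted p = 0.116). The old repopulated against young call held in all 23 fits, at 3.23 to 3.68. Within library numbers 12 to 24 the log2 fold changes were 3.31 (old against young, adjusted p = 0.000292), 2.95 (young repopulated against young, 0.0011) and 4.69 (old repopulated against young, 2.395e-05), and old repopulated against old was called there as well (1.38, 0.0385). Within 1 to 11 they were 1.12 for old against young (adjusted p = 1) and 2.13 for old repopulated against young (0.377), neither of which passed. Of all genes 0.00533% and 0.0107% passed in these comparisons within 1 to 11, against 15.7% and 41.1% within 12 to 24.

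**Figure D2:**
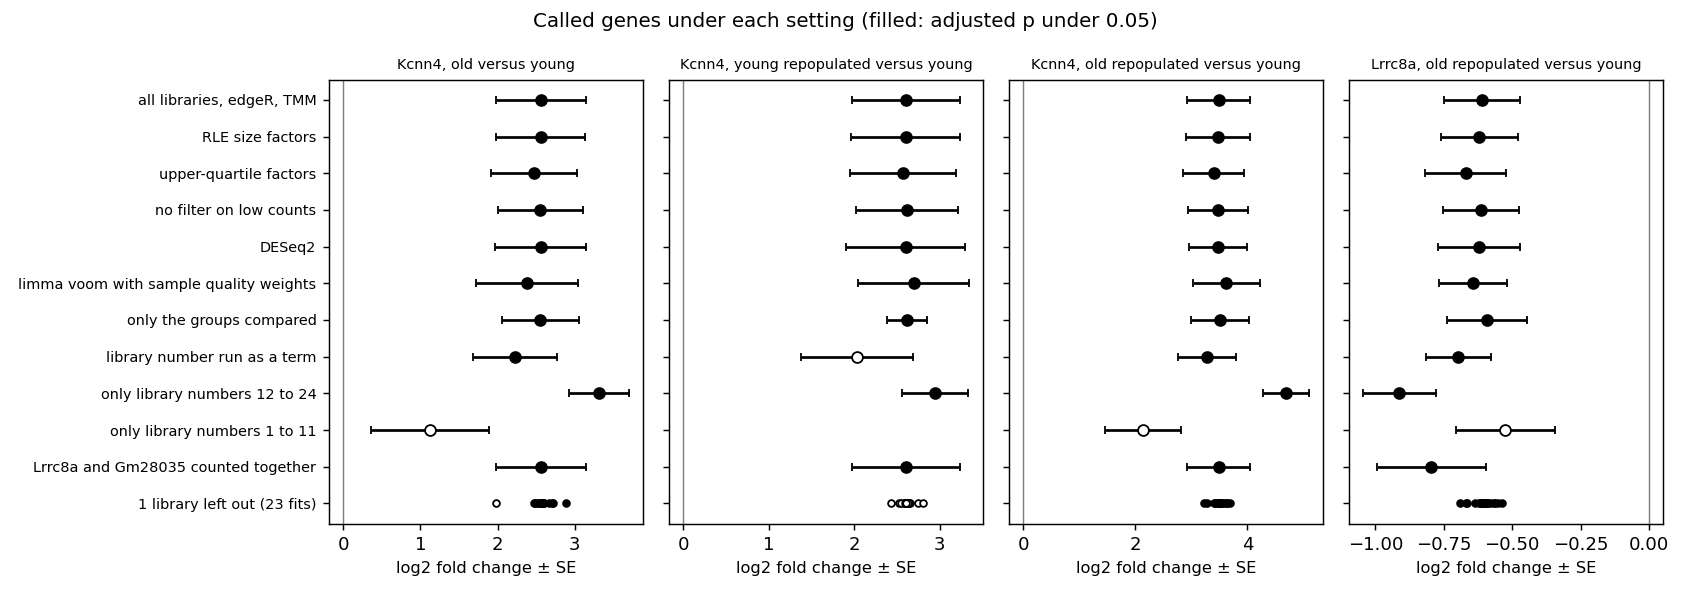
Log2 fold change ± SE of Kcnn4 in 3 comparisons and of Lrrc8a in old repopulated against young, under each setting; filled points passed at an adjusted p under 0.05, and the lowest line has 1 point for each of 23 fits without 1 library. Kcnn4 is above 0 in every fit drawn, at 1.12 to 4.69, and Lrrc8a is below 0 in every one.

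Markers of other cells moved between the same groups as Kcnn4, and both are given here for single libraries. The 4 libraries with the most Kcnn4 were old repopulated replicates 8, 6 and 7 (94.2, 84.5 and 63.3 CPM) and old replicate 3 (53.8), and their microglia marker sums were 9814, 10610, 14530 and 10370 CPM. Their monocyte sums were 1243, 3027, 898 and 2334 CPM. Old replicate 1, with 2.67 CPM of Kcnn4, had a monocyte sum of 132 CPM and the highest microglia sum of the old group (26580 CPM). Young replicate 3 had the monocyte sum farthest above the other young libraries (248 CPM) and 4.58 CPM of Kcnn4, inside the range of the rest. Old repopulated replicate 2 had a monocyte sum of 161 CPM with 42.8 CPM of Kcnn4 and a border macrophage sum of 810 CPM, and young repopulated replicate 3 had a monocyte sum of 81.1 CPM with 16.7 CPM of Kcnn4 and a border macrophage sum of 295 CPM. None of the 8 monocyte or 7 border macrophage markers was at 0 in all libraries of a group. Of the 8 monocyte markers, 6 rose in old against young, 7 in old repopulated against young and 0 in young repopulated against young (edgeR). Of the 7 border macrophage markers, 2, 5 and 1 rose in the same comparisons. Of 7 tested neutrophil markers 4, 4 and 1 rose, and of 5 dendritic cell markers 2, 2 and 1. The shares over all genes in these comparisons were 2.83%, 15.2% and 1.34% in either direction. The listed markers that rose in all 3 comparisons in which Kcnn4 did were Cd209a, Mmp8, Ms4a7 and Flt1. Cd209a is a dendritic cell marker, Mmp8 a neutrophil collagenase, Ms4a7 a border macrophage marker and Flt1 an endothelial marker. Other markers of the same lists went the other way. Xcr1, of the dendritic cell list, gave -0.41, -1.40 and -1.32 in old, young repopulated and old repopulated against young, without a call. Cd163, of the border macrophage list, gave 0.74, -1.29 and -0.73 in the same order, also without a call. The other 6 border macrophage markers were above 0 in all 3. Pecam1, of the endothelial list, fell in young repopulated and in old repopulated against young. Flt1 was the 1 of 5 endothelial markers above 0 in each of these 3 comparisons, and the other 4 were below 0. Cd209a had 0 to 0.613 CPM in young, 4.55 to 9.27 in young repopulated, 2.33 to 7.01 in old and 1.18 to 10.3 in old repopulated libraries, and Mmp8 had 0.229 to 5.06, 9.76 to 28.6, 7.86 to 38.0 and 2.84 to 52.5 CPM. Kcnn4 and Kcna3 are also known from lymphocytes. The sum of 8 T and NK cell markers was 0.462 to 2.12 CPM in young, 2.03 to 6.07 in young repopulated, 0.762 to 19.2 in old and 0.601 to 14.6 in old repopulated libraries. Klrd1, an NK cell receptor gene, reached 18.5 CPM in old and 14.2 in old repopulated libraries, so it made up most of the highest sums. It was the 1 marker of 4 tested that was called, in old against young (3.00, edgeR, adjusted p = 0.0426) and in old repopulated against young (2.94, 0.0121). The other 3 were above 0 in old against young. In old repopulated against young they were below 0 (Lck -0.37, Gzma -0.46 and Cd3d -0.02). The T cell receptor complex genes Cd3e, Cd3d and Cd3g were at 0 to 0.211, 0 to 0.486 and 0 to 0.566 CPM. The sum of 6 B cell markers went the other way. It was 13.2 to 18.8 CPM in young, 1.355 to 5.21 in young repopulated, 6.63 to 16.2 in old and 1.353 to 11.6 in old repopulated libraries. Of 4 tested B cell markers only Cd79b was called, lower in young repopulated (-2.43, edgeR, adjusted p = 0.0454) and old repopulated against young (-1.63, 0.00892). What part these cells had in the Kcnn4 differences was not tested.

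**Figure D3:**
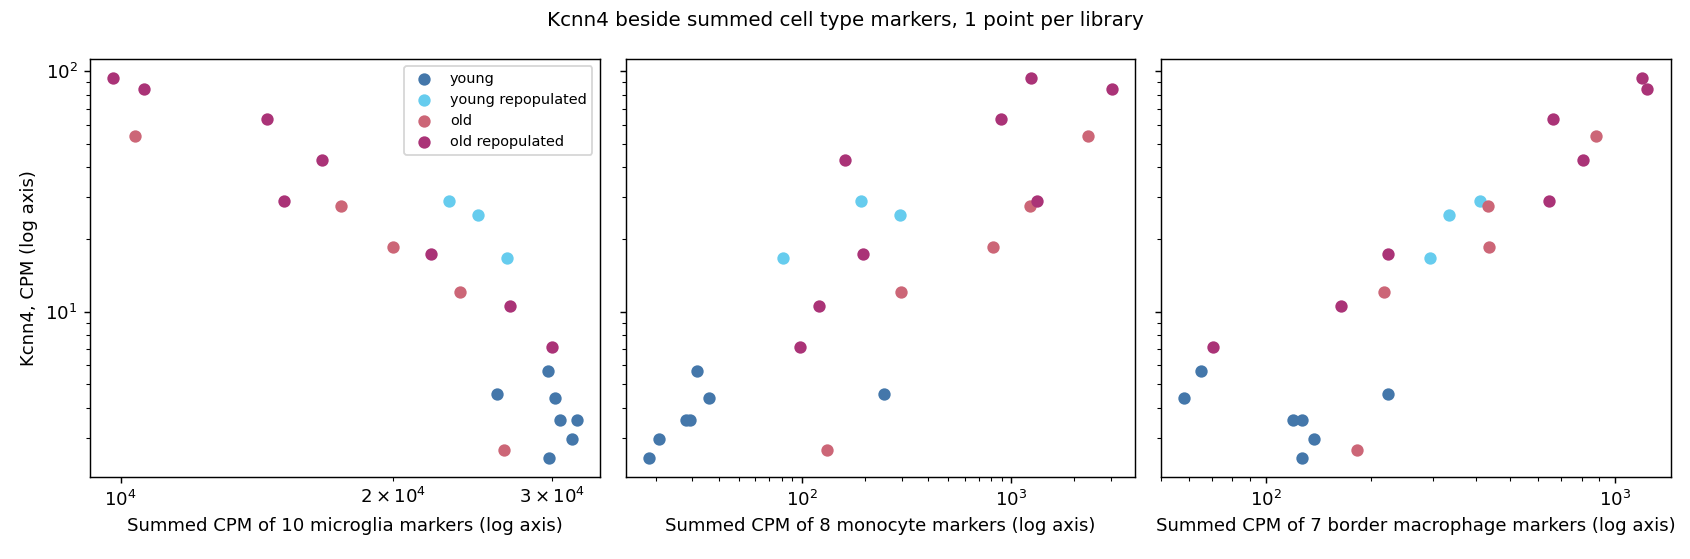
CPM of Kcnn4 against the summed CPM of microglia, monocyte and border macrophage markers (log axes), 1 point per library. The 4 libraries with over 50 CPM of Kcnn4 have microglia sums of 9814 to 14530 CPM, and the 7 young libraries, with 2.46 to 5.66 CPM, have sums of 26110 to 31970.

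Kcna3 encodes Kv1.3, the voltage-gated potassium channel of activated microglia and T cells. It had 3.67, 10.4 and 14.2 CPM as the lowest, median and highest young library, 10.5, 9.93 and 9.60 in young repopulated, 13.2, 14.4, 17.2, 10.6 and 22.1 in old, and 8.88, 15.5 and 21.6 as lowest, median and highest in old repopulated libraries. The old groups were shifted up but overlapped the young one. Its log2 fold changes were 0.65 ± 0.26 (SE) in old against young (edgeR, adjusted p = 0.21) and 0.65 ± 0.23 in old repopulated against young (0.0615), and neither passed. Within library numbers 12 to 24 the 3 old repopulated libraries (16.98 to 21.6 CPM) lay above the 4 young ones (8.12 to 14.2), and the difference passed (0.85, edgeR, adjusted p = 0.00866). Within 1 to 11 it was 0.61 (adjusted p = 0.561), with 8.88 to 20.6 against 3.67 to 11.7 CPM. Young repopulated against young was 0.02 ± 0.31 (0.986). Kcnj2 encodes Kir2.1, an inward rectifier that holds the resting potential. It varied widely within groups, at 23.3 to 87.4 CPM in young (median 57.5), 43.5, 38.3 and 54.0 in young repopulated, 73.0, 61.5, 22.1, 84.8 and 54.5 in old, and 19.8 to 75.2 in old repopulated libraries (median 33.01). Over all libraries the 4 groups overlapped, and the log2 fold changes of the first 4 comparisons lay between -0.44 and 0.09, with standard errors of 0.31 to 0.43 and no call. Within library numbers 12 to 24 the 3 old repopulated libraries had 19.8 to 30.8 CPM of Kcnj2, all below the 4 young ones (42.9 to 61.0). There old repopulated against young (-1.202, edgeR, adjusted p = 0.0148) and old repopulated against old (-1.2005, 0.0492) passed. Within 1 to 11 these were -0.04 (adjusted p = 0.984) and -0.27 (1), with 30.9 to 75.2 CPM in old repopulated and 23.3 to 87.4 in young libraries.

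Hvcn1 encodes the voltage-gated proton channel Hv1, which in phagocytes extrudes the acid that NADPH oxidase leaves behind. It had 270, 288 and 298 CPM as the lowest, median and highest young library, 329, 325 and 342 in young repopulated, 305, 250, 141, 238 and 184 in old, and 141, 240 and 361 in old repopulated libraries. The 3 young repopulated libraries were above all young ones, whereas the old groups spread to both sides. The log2 fold change in young repopulated against young was 0.23 ± 0.23 (SE; edgeR, adjusted p = 0.713), and in old against young -0.34 ± 0.20 (0.425). Within library numbers 12 to 24 old against young was -0.62 (adjusted p = 0.0194), and within 1 to 11 it was 0.00 (adjusted p = 1). Old repopulated against young was -0.19 ± 0.17 over all libraries (adjusted p = 0.502), but -0.76 within 12 to 24 (0.00219), where 141 to 199 CPM stood below 274 to 298 in young libraries, and 0.11 within 1 to 11 (0.861), with 239 to 361 against 270 to 288 CPM. Exons of Tctn1 on the opposite strand cover 44.2% of the exon bases of Hvcn1, and the strand setting of the counting was not given, so reads of both genes may be mixed. Of the 6 NADPH oxidase genes, Cybb, the catalytic subunit, rose in old against young (log2 1.59 ± 0.31, adjusted p = 0.00767), in young repopulated against young (1.77 ± 0.34, 0.012) and in old repopulated against young (1.86 ± 0.29, 0.000429). Its levels were 110 to 169 CPM in young, 335 to 567 in young repopulated, 186 to 660 in old and 162 to 843 in old repopulated libraries, so the old repopulated group alone overlapped the young one. Of all genes 12.1% had no overlap in young repopulated against young and 2.21% in old against young. Ncf4 and Cyba rose in old repopulated against young, by 0.57 and 0.38 on the log2 scale, and the other 3 genes of the list passed in no comparison.

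Trpm2, a calcium-permeable channel opened by ADP-ribose and oxidative stress, had 129, 156 and 198 CPM as the lowest, median and highest young library, and 285, 296 and 307 in young repopulated ones. The old libraries had 266, 185, 108, 159 and 169 CPM, and the old repopulated ones 95.7, 206 and 308 as lowest, median and highest. All 3 young repopulated libraries were thus above all 7 young ones, and both old groups spanned the young range and went past it on either side. Levels differed between the runs of library numbers. In 1 to 11 the young libraries had 180 to 198 CPM, the old ones 185 to 266 and the old repopulated ones 206 to 308. In 12 to 24 these groups had 129 to 156, 108 to 169 and 95.7 to 157 CPM, below 1 to 11 without overlap in each. The log2 fold change in young repopulated against young was 0.85 ± 0.25 (SE; edgeR, adjusted p = 0.0973), short of the threshold. It passed with DESeq2 (0.84, adjusted p = 0.038), limma voom with sample quality weights (0.98, 0.000236), the 2 groups alone (0.86, 0.00169), the run of library numbers as a term (1.13, 0.000944), library numbers 12 to 24 alone (1.06, 0.00305), and without old repopulated replicate 1 (0.87, 0.0473). Old repopulated against old was 0.12 ± 0.22 (adjusted p = 0.935). The test of the difference between both repopulation effects gave -0.73 ± 0.33 (adjusted p = 0.58). That difference passed with voom weights and within library numbers 12 to 24, where Trpm2 was the member called. Trpv2, a cation channel of macrophages linked to phagocytosis, differed little between groups, at 74.3 to 94.7 CPM in young (median 85.0), 93.9, 94.3 and 94.9 in young repopulated, 87.7, 87.7, 91.3, 82.8 and 101 in old, and 87.6 to 105 in old repopulated libraries (median 93.7). All 4 groups overlapped. Its log2 fold change in old repopulated against young was 0.16 ± 0.06 (edgeR, adjusted p = 0.0671).

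Clic1, a chloride intracellular channel protein of activated microglia, had 275, 306 and 368 CPM as the lowest, median and highest young library, 277, 293 and 279 in young repopulated, 284, 306, 382, 299 and 330 in old, and 278, 318 and 410 in old repopulated libraries. Over all libraries the groups overlapped, and the log2 fold changes of the first 4 comparisons were between -0.12 and 0.12 with no call. Within library numbers 12 to 24 the 3 old repopulated libraries (359.9 to 410 CPM) lay above the 4 young ones (275 to 306), and Clic1 passed in that comparison (0.41, edgeR, adjusted p = 0.00228). Within 1 to 11 the libraries overlapped (278 to 322 against 286 to 368 CPM) and the log2 fold change was -0.11 (0.792). Lrrc8a (ENSMUSG00000007476.18, chr2:30237715-30263790, plus strand) had 32.6, 35.9 and 44.6 CPM as the lowest, median and highest young library. The young repopulated libraries had 25.6, 21.7 and 26.8 CPM, the old ones 38.5, 27.5, 26.6, 37.3 and 27.1, and the old repopulated ones 16.95, 22.1 and 33.1 as lowest, median and highest. All young repopulated libraries and all but the highest old repopulated one were below the young range, and 2 old libraries were inside it. The log2 fold changes were -0.61 ± 0.14 (SE) in old repopulated against young (edgeR, adjusted p = 0.00573), -0.59 ± 0.19 in young repopulated against young (0.13), -0.37 ± 0.15 in old repopulated against old (0.35) and -0.24 ± 0.16 in old against young (0.514). The first of these held in all 23 fits without 1 library, at -0.69 to -0.54. It was -0.91 within library numbers 12 to 24 (adjusted p = 0.000266) and -0.52 within 1 to 11 (adjusted p = 0.399). Within 12 to 24 Lrrc8a also passed in old repopulated against old (-0.72, edgeR, adjusted p = 0.00837) and in young repopulated against young (-0.47, 0.0425).

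The Lrrc8a count is uncertain, because the predicted gene Gm28035 on the same strand covers 66.2% of its exon bases and the counting divided shared reads between both. Lrrc8a received 44.5% to 50.5% of their joint count in young and 35.1% to 72.0% in old repopulated libraries. Gm28035 was chosen for this check after its values were seen, as was the check itself. Summed, both genes had 77.1 ± 7.99 CPM (SD, n = 7) in young, 59.8 ± 3.06 (n = 3) in young repopulated, 60.9 ± 21.5 (n = 5) in old and 44.5 ± 16.7 (n = 8) in old repopulated libraries. The sum fell in old repopulated against young by 0.80 ± 0.20 (SE) on the log2 scale (edgeR, adjusted p = 0.0106), and the other 3 comparisons did not pass. In young repopulated against young the sum gave -0.37 ± 0.27 (adjusted p = 0.581), against -0.59 for Lrrc8a alone.

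**Figure D4:**
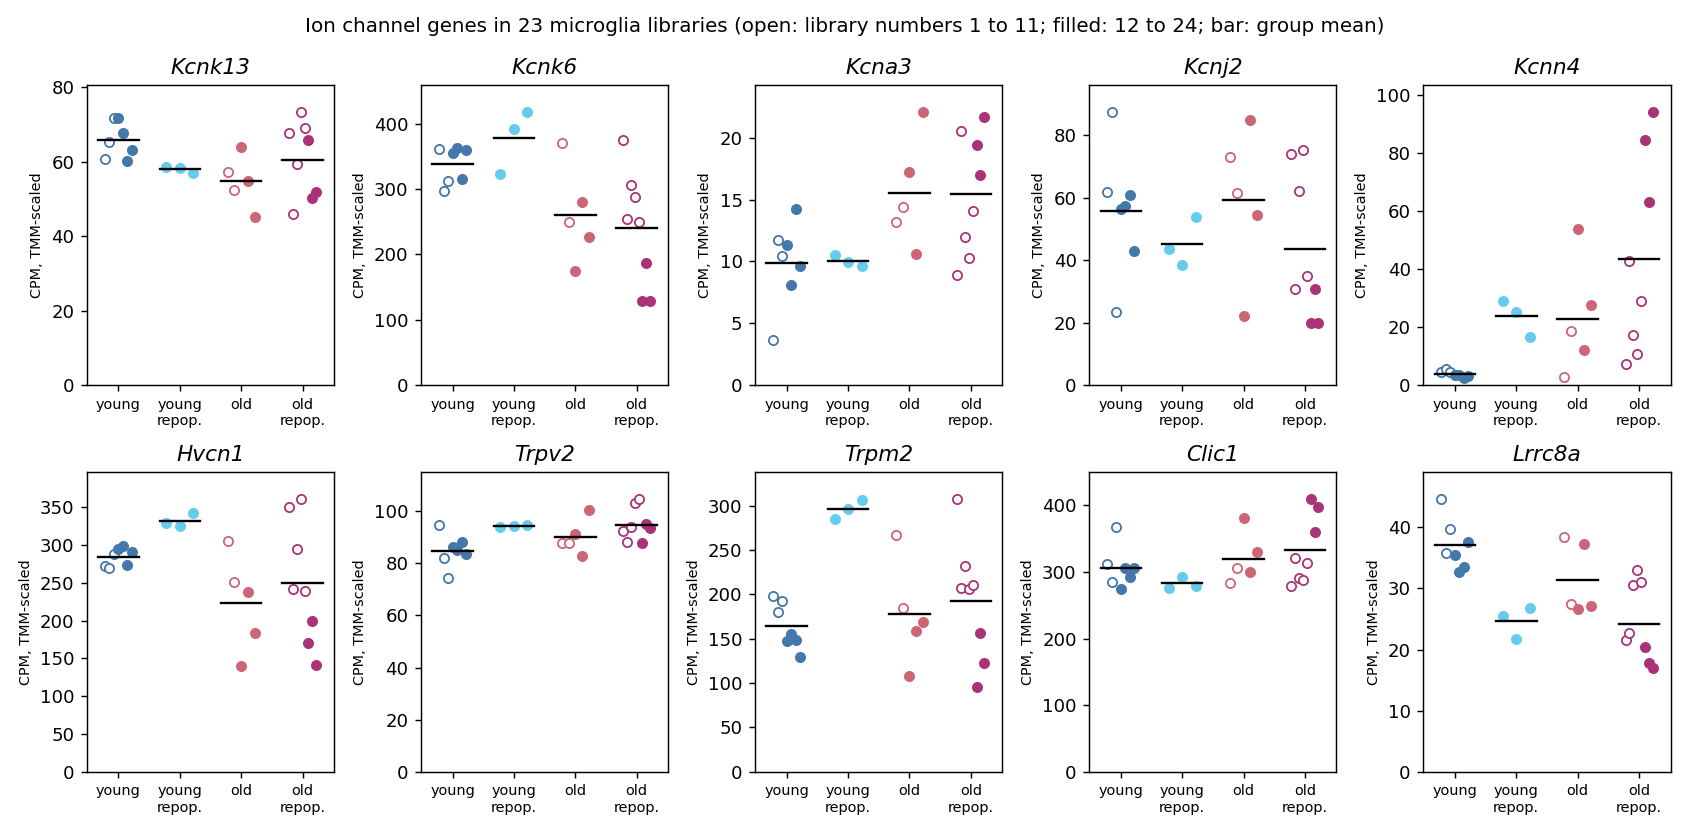
CPM (scaled for library composition, linear axes from 0) of each ion channel gene, 1 point per library, with a bar at the group mean; open points have library numbers 1 to 11 and filled points 12 to 24. Kcnn4 is at 2.46 to 5.66 CPM in young libraries and reaches 94.2 in old repopulated ones, and the 3 young repopulated libraries stand above the young ones for Kcnn4, Hvcn1 and Trpm2 and below them for Kcnk13 and Lrrc8a.

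Counted over the comparisons, the members were set beside all 18720 genes tested. In old against young 1 of 10 members (Kcnn4) passed edgeR's quasi-likelihood test, against 2.83% of all genes, and the median log2 fold change was 0.07 for the members and -0.01 for all genes. DESeq2 called 1 member and 5.18% of all genes, voom with weights 5 and 12.6%, the run as a term 1 and 3.3%, library numbers 12 to 24 3 and 15.7%, and 1 to 11 0 and 0.00533%. No member separated both groups without overlap, as 2.21% of all genes did. In young repopulated against young 1 member (Kcnn4) passed, against 1.34% of all genes, with medians of 0.09 and -0.04. DESeq2 called 2 members and 4.46% of all genes, voom 3 and 13.8%, the run as a term 1 (Trpm2 in place of Kcnn4) and 1.74%, and numbers 12 to 24 3 and 9.3%. The libraries of these groups did not overlap for 5 of the 10 members, against 12.1% of all genes: Kcnn4, Hvcn1 and Trpm2 were above and Kcnk13 and Lrrc8a below.

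In old repopulated against young 2 members passed, Kcnn4 higher and Lrrc8a lower, against 15.2% of all genes, and the medians were 0.00 and -0.02. A share of 2 in 10 is near that background. DESeq2 called 5 members and 19.7% of all genes, voom 8 and 35.5%, the run as a term 4 and 24.5%, numbers 12 to 24 7 and 41.1%, and 1 to 11 0 and 0.0107%. Only Kcnn4 separated the groups, as 2.24% of all genes did. In old repopulated against old 0 members passed edgeR's test, against 0.278% of all genes. An unadjusted p under 0.05 was found for 1 member (Lrrc8a) and for 1941 of the 18720 genes. DESeq2 called 0 (1.67% of all genes), voom 0 (2.21%), the run as a term 0 (0.609%), numbers 12 to 24 4 (12.7%; Kcnj2, Kcnk6, Kcnn4 and Lrrc8a) and 1 to 11 0 (0%). The medians were 0.07 for the members and 0.00 for all genes, and no member separated the groups, against 0.737% of all genes.

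Old repopulated against young repopulated gave 0 called members and 0% of all genes by edgeR. An unadjusted p under 0.05 was found for 2 members (Trpm2 and Kcnk6) and for 2183 of the 18720 genes. DESeq2 called 0 members (0.491% of all genes), voom 4 (17%), the run as a term 3 (4.52%) and numbers 12 to 24 7 (36.3%), and no member separated the groups (2.26% of all genes). The interaction, which asks whether repopulation changed a gene differently in old and young animals, gave 0 members and 0% of all genes by edgeR. Trpm2 alone of the members had an unadjusted p under 0.05, as did 1542 of the 18720 genes. DESeq2 called 0 (0.246%), voom 1 (0.807%), the run as a term 0 (0.0374%) and numbers 12 to 24 1 (8.87%). The comparisons of 2 groups share libraries, with the young ones in 3 and the old repopulated ones in 3 of the 5, so their values are set side by side and not compared.

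**Figure D5:**
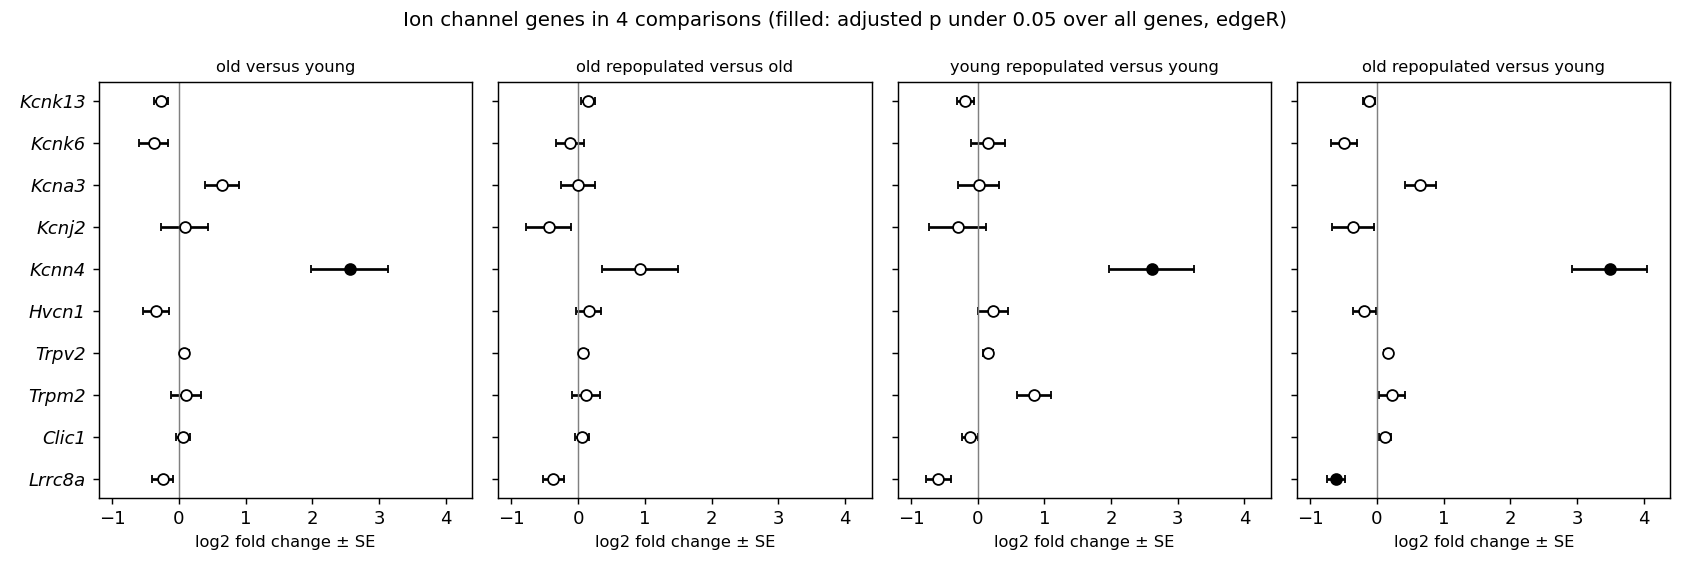
Log2 fold change ± SE of the 10 ion channel genes in 4 comparisons; filled points passed edgeR's test at an adjusted p under 0.05 over all genes. Kcnn4 is filled at 2.56, 2.61 and 3.49 in the comparisons with young libraries, Lrrc8a at -0.61 in old repopulated against young, and the other points are open.

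Genes related to the members were taken from lists of channel families. Of 12 further two-pore-domain potassium channels only 4 had enough counts to test. Kcnk12, which encodes THIK-2, the closest relative of THIK-1, fell in old repopulated against young (log2 -2.01 ± 0.51, adjusted p = 0.0115), from 5.17 to 11.8 CPM in young to 0.299 to 5.74 in old repopulated libraries. It had 1.62 to 3.66 CPM in young repopulated and 1.19 to 8.68 in old libraries, and no other comparison called it. Of 29 other potassium channel subunits 14 were tested. Kcnab2, a beta subunit of Kv1 channels such as Kv1.3, rose in old against young (2.13 ± 0.53, adjusted p = 0.0314) and in old repopulated against young (2.98 ± 0.51, 0.00097), from 4.17 to 8.50 CPM in young to 5.03 to 53.0 in old and 4.35 to 96.6 in old repopulated libraries. In old repopulated against young, where 15.2% of all genes were called, 5 of the 14 were: Kcne3 also rose (4.05), at no more than 0.939 CPM in any library, while Kcnh2, Kcnd1 and the lysosomal channel gene Tmem175 fell (-1.43, -1.16 and -0.39).

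Among 19 tested chloride and anion channel genes, Clcn3, an endosomal chloride/proton exchanger, fell in old against young (-0.37 ± 0.09, edgeR, adjusted p = 0.0314) and in old repopulated against young (-0.32). In the latter comparison 4 rose and 2 fell, against 15.2% of all genes called in either direction. Lrrc8c, a partner subunit of Lrrc8a, rose by 1.77 ± 0.40 (adjusted p = 0.0056), from 3.80 to 8.38 CPM in young to 6.25 to 43.8 in old repopulated libraries, with Clic4 (0.87) and the scramblase and channel gene Ano6 (0.48) also higher and Clic5 lower (-2.09). Lrrc8b (0.73 ± 0.25, adjusted p = 0.0505) and Lrrc8d (0.01 ± 0.07, 0.945) did not pass. The members of one channel family thus differed in direction between old repopulated and young libraries, with Lrrc8a lower and Lrrc8c higher. Of 16 tested TRP and related cation channels, 2 fell in old repopulated against young, where 15.2% of all genes were called. They were Trpm4, a calcium-activated monovalent cation channel (-0.84 ± 0.15, edgeR, adjusted p = 0.00145), and Tpcn1 (-0.27). Of 12 tested genes of calcium entry and mechanosensitive channels, Itpr1, an inositol trisphosphate receptor of the endoplasmic reticulum, rose in old against young (1.35 ± 0.34, 0.035). Ryr1, Itpr1 and Itpr3 rose in old repopulated against young (2.92, 1.11 and 0.71). Itpr3 had 33.6 to 44.7 CPM in young and 52.2 to 85.8 in old repopulated libraries, with no overlap, as was so for 2.24% of all genes.

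The 12 genes listed as signalling partners of THIK-1, purinergic receptors and inflammasome parts, were all tested. P2rx4, an ATP-gated cation channel, rose in young repopulated against young (0.58 ± 0.15, edgeR, adjusted p = 0.0471) and in old repopulated against young (0.38 ± 0.11, 0.0254), and Pycard, the inflammasome adaptor, fell in both (-0.51 ± 0.11, 0.0239, and -0.48 ± 0.08, 0.000912). Pycard had 109 to 151 CPM in young and 85.6 to 94.5 in young repopulated libraries, without overlap, as was so for 12.1% of all genes. P2ry12 fell in old repopulated against young (-1.198 ± 0.35, 0.023), from 1298 to 2011 CPM in young to 239 to 1947 in old repopulated libraries, and Il18 fell there as well (-0.71), so that 4 of the 12 fell in that comparison with Pycard and Nek7 and 1 rose, against 15.2% of all genes called in either direction. P2ry12 is also one of the 10 microglia markers, of which 4 fell in that comparison, against the same share of all genes. None of the listed channel, partner or NADPH oxidase genes was called in old repopulated against old, in old repopulated against young repopulated or in the interaction by edgeR, where 0.278%, 0% and 0% of all genes were called. Over all genes 1941, 2183 and 1542 had an unadjusted p under 0.05 there.

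The genes whose order over the 23 libraries was most like that of Kcnk13 were found by the mean difference in rank of CPM among 9625 genes. They were Il4i1 (mean difference of 3.57 ranks), Tmbim6 (3.65), Rhoq (3.74), Cd53 (3.74) and Sema4d (3.83), where the median gene differed by 7.83 ranks. Of the other members Hvcn1 came closest, at 5.83 ranks and place 753, followed by Lrrc8a at 6.09, and Kcnn4 was farthest at 9.91 ranks. These ranks are over libraries that share their groups and are given as a description.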

How the data were processed

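Per the labels' protocols, poly(A) RNA of sorted microglia was made into stranded libraries and sequenced as single 50-base reads. Per the submitters' processing notes FastQC 0.11.5, STAR, RSEM, limma and GRCm38 were used; the sources used here give no version of STAR or RSEM, no annotation and no strand setting. The deposited tables hold the authors' RSEM expected counts, TPM and effective lengths (in bases, used as the deposited score that scales counts per length) for each of 53090 genes. Of the expected counts 87.26% were whole (tolerance 1e-06); all were rounded. Gene coordinates are from GENCODE M21 on GRCm38, which held 49121 of the gene identifiers with the same version.

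Genes were filtered with filterByExpr, scaled with TMM and tested across all 18720 genes with edgeR 4.0.16 (quasi-likelihood; R 4.3.3) in 1 fit of 23 libraries and 4 groups. P-values were adjusted by Benjamini-Hochberg over all genes, and called means an adjusted p under 0.05. CPM use TMM library sizes. Alternatives were RLE and upper-quartile scaling, no filter, DESeq2 1.42.0, limma 3.58.1 voom with sample quality weights, the compared groups alone, runs of library numbers, each library left out, and, chosen after seeing the data, Lrrc8a summed with Gm28035. The fits were tested on simulated data. The members and lists were chosen with earlier results of these data known. The text names all 10 members, up to 3 called genes per list, direction and comparison, and the 5 genes most like Kcnk13 with a mean of at least 5 CPM, without predicted genes.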

Additional observations from a re-analysis of the deposited data

Results flagged for a closer look

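Young replicate 1 had 3.67 CPM of Kcna3, and the next young library had 8.12 CPM. The gap was 0.586 of the range of the 7 young libraries on the log2 scale, enough to mark the library as far from the rest of its group. It was the 1 mark among 30 groups of libraries examined, and chance marks about 1 in 20. Without that library Kcna3 was 0.50 higher in old repopulated than in young libraries on the log2 scale (edgeR, adjusted p = 0.128), against 0.65 (0.0615) with it.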

How the results depend on the processing

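Upper-quartile factors, RLE size factors, testing without a filter on low counts and the sum of Lrrc8a with Gm28035 (chosen after seeing the data) changed no call of a member. Counts of members called moved as follows. In old against young, voom weights gave 5, library numbers 12 to 24 gave 3 and 1 to 11 gave 0, against 1. In young repopulated against young, DESeq2 gave 2, voom 3, the compared groups alone 4 (7.5% of all genes, against 1.34%) and numbers 12 to 24 3, against 1. In old repopulated against young, DESeq2 gave 5, voom 8, the run as a term 4, numbers 12 to 24 7 and 1 to 11 0, against 2. In old repopulated against old numbers 12 to 24 gave 4, against 0. In old repopulated against young repopulated voom gave 4, the run as a term 3 and numbers 12 to 24 7, against 0, and in the interaction voom and numbers 12 to 24 gave 1 each. Leaving out 1 library gave 0 to 1 members in old against young, 0 to 2 in young repopulated against young and 2 to 5 in old repopulated against young. The highest counts, 2 and 5, came without old repopulated replicate 1, where 2.19% and 25.7% of all genes were called, against 1.34% and 15.2%. The count of 0 in old against young came without old replicate 3 (0.536% of all genes, against 2.83%), and those in young repopulated against young went with 0.166% to 1.14% of all genes. The cause was not tested.

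Signs turned only for differences that were not called over all libraries. Hvcn1 in old and in old repopulated against young was called within 12 to 24, with the sign opposite to that within 1 to 11. The same held for Clic1 in old repopulated against young. Kcna3 in young repopulated against young was -0.0086 with upper-quartile factors, -0.15 with the run as a term and -0.0811 within 12 to 24, and in old repopulated against old it was 0.0179 with voom, 0.0686 with the run as a term and 0.22 within 12 to 24. Trpm2 in old repopulated against old was -0.0235 with voom, -0.0508 with the run as a term and -0.22 within 12 to 24, and in old repopulated against young -0.20 within 12 to 24. Within 12 to 24 Kcnj2 in old against young was -0.0018 and Hvcn1 in old repopulated against old -0.15. Within 1 to 11 Hvcn1 was 0.0045 in old against young and 0.11 in old repopulated against young, and Clic1 was -0.13 and -0.11. Without 1 library, old against young ran from -0.0088 to 0.13 for Clic1, -0.0803 to 0.30 for Kcnj2 and -0.0611 to 0.25 for Trpm2. Old repopulated against old ran from -0.11 to 0.16 for Kcna3, -0.24 to 0.0377 for Kcnk6 and -0.0184 to 0.31 for Trpm2, and Kcna3 in young repopulated against young from -0.12 to 0.13.

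No paired analysis was possible because each number in the titles is used once and pairs no libraries across groups. Depth (43.66 to 58.19 M counts per library) gave Kcnn4 at least 112 and Kcna3 at least 176 counts in every library.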
